A study of Drosophila melanogaster with 4 samples.

Results

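The broad autosomal domains of H3K79me1 are stretches of 20 kb or more on chromosome arms 2L, 3L and 3R that were enriched for this histone mark in Drosophila melanogaster embryos. They were chosen by their width and overlap in the list of enriched regions that the authors deposited for the replicate set. The rule required a width of at least 20 kb, a position outside the proximal 2 Mb of each arm, and at least 1 bp of overlap with a region in each of the 2 replicate lists. It found 334 domains among 2933 regions under the same position limits and 5330 regions in the whole list. All 334 regions of that width under the limits overlapped a region in each replicate, so the overlap rule removed 0 of them. Over all 2933 regions, 68.7% did so, and since the rule used this overlap nothing is read from the difference.

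The series measured H3K79me1 by chromatin immunoprecipitation and sequencing (ChIP-seq) in wild-type embryos of the Oregon-R strain (Oregon-R-modENCODE) staged at 14 to 16 h. It held 2 ChIP libraries made with an H3K79Me1 antibody and 2 input libraries of genomic DNA from the same kind of embryo. All 4 libraries share strain, genotype and stage, so the design holds no treated or mutant group. The protocol in the labels fixed whole embryos with formaldehyde and describes collections of embryos not older than 16 h, so many cell types are mixed. Each ChIP library had 1 list of regions, called with an input library. Read counts are not part of these lists, so the depth of the libraries and the counting error of a region are unknown. Positions are 1-based on FlyBase release 5. Neither a genome nor a gene annotation of that release was used here, so domains are named by arm, start and end, and no gene or sequence is given.

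H3K79 methylation sits in the globular core of histone H3 rather than on its tail. In flies the methyltransferase is grappa, the DOT1 homologue, which adds methyl groups stepwise to give the mono-, di- and trimethylated forms. These marks are known for lying along genes that are being transcribed. A broad domain in a list of regions is a stretch that the caller did not break. It can hold a single long gene or several neighbours, and which of these applied was not examined here.

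Although the domains were only 11.4% of the regions under the limits, they held 44.4% of the sequence that the replicate-set list marked there. They spanned 11.6 Mb, which was 16.8% of the 69.5 Mb of arm examined. Of the sequence marked in the replicates' own lists under the limits, 48.1% in replicate 1 and 47.6% in replicate 2 lay inside them. Width chose the domains, so these shares describe the rule and were not tested. Arm 2L held 108 domains, 3L held 115 and 3R held 111, which is 5.14, 5.10 and 4.28 domains per Mb. They took up 17.2% of 2L, 17.3% of 3L and 15.99% of 3R.

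Most domains were not far above the width limit. The median width was 28375 bp, with a middle range (25th to 75th percentile) of 23212 to 40591 bp. There were 118 domains of 20 to 25 kb, 69 of 25 to 30 kb, 58 of 30 to 40 kb, 61 of 40 to 60 kb, 17 of 60 to 80 kb and 11 of 80 kb or more. The 11 widest held 9.51% of the sequence in domains and the 118 narrowest 22.5%. Medians were close on the arms, 27924 bp on 2L, 27661 bp on 3L and 30269 bp on 3R. The narrowest domains were 20003 bp (2L from 20747222 to 20767224), 20007 bp (3L from 14044020 to 14064026) and 20027 bp (2L from 6068426 to 6088452). The regions just under the limit were 19999 bp (3L from 9826870 to 9846868), 19947 bp (3R from 27595018 to 27614964) and 19919 bp (2L from 13780222 to 13800140). Replicate 1 covered 87.0% to 95.9% of the 3 regions just above the limit and 92.3% to 99.3% of the 3 just below it. Replicate 2 covered 98.1% to 99.8% of those just above and 90.2% to 98.6% of those just below. Coverage on the 2 sides of the limit thus overlapped in each replicate.

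**Figure D1:**
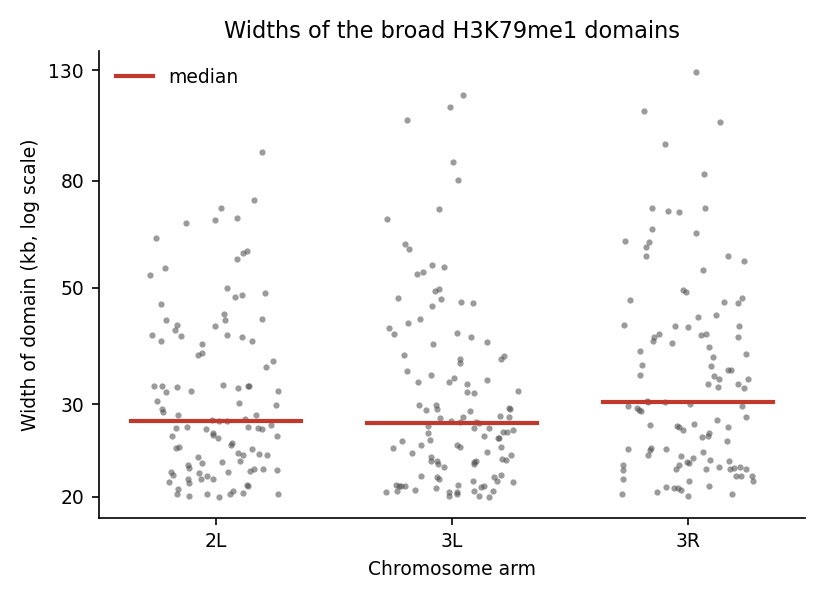
Width of each of the 334 broad domains (points, kb, log scale) on arms 2L, 3L and 3R, with the median of each arm as a red line. Medians lie between 27661 and 30269 bp, and domains of 80 kb or more are few on every arm.

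The first comparison asked how far the separate replicates filled the domains. Both filled most of them nearly from edge to edge. The median domain was covered to 94.98% by regions of replicate 1 and to 98.2% by regions of replicate 2, a mean of 96.6% ± 2.29 (SD, n = 2). For the 1681 narrower regions found in each replicate the medians were 91.98% and 94.1%, a mean of 93.1% ± 1.52 (SD, n = 2). Bases lost at an edge are a smaller share of a wide region, so these shares move with the width that the rule used and are read no further. Across all bases of the domains, 90.8% lay in regions of both replicates, 1.80% in replicate 1 alone, 6.13% in replicate 2 alone and 1.28% in neither. In the narrower regions these shares were 81.4%, 5.12%, 9.64% and 3.81%. Since the replicate set draws on these libraries, coverage by the replicates is no independent support and was not tested. Whether the replicates were separate embryo collections is not in the labels, so the SD may be technical.

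Coverage of at least 90% in each replicate was reached by 236 of the 334 domains (70.7%), against 32.8% of all 2933 regions. Among narrower regions found in each replicate, 725 of 1681 (43.1%) reached it. The 10% that may be missing is more bases in a wide region than in a narrow one, so nothing is read from these shares. Taken singly, replicate 1 covered 249 domains (74.6%) to at least 90% and replicate 2 covered 308 (92.2%). For narrower regions found in each replicate these shares were 56.2% and 64.6%. Replicate 2 covered more of the domain than replicate 1 in 244 cases, less in 89 and the same in 1. Over all 2933 regions, which include regions absent from a replicate, 52.0% were covered more in replicate 2. Of the 1681 narrower regions found in each replicate, 985 were covered more in replicate 2 and 694 more in replicate 1. Coverage was under 75% for 17 of the 334 domains in replicate 1 and for 2 in replicate 2. Of the 1681 narrower regions it was so for 334 in replicate 1 and 237 in replicate 2. These counts move with width too, and nothing is read from them. The coverages in the replicates were weakly related across the 334 domains (Spearman rho 0.267), which share the libraries and the caller.

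The domains with the lowest coverage were filled in replicate 2 and thin in replicate 1. The domain on 2L from 17717452 to 17741456 was covered to 35.2% in replicate 1 and to 92.0% in replicate 2. The domain on 2L from 4043130 to 4067132 was covered to 37.6% in replicate 1, by 5 regions, and to 93.9% in replicate 2, by 3. On 3L from 6320850 to 6341810, replicate 1 had 4 regions over 43.9% of the domain, with a gap of 9655 bp, and replicate 2 had 1 region over 90.3%. All 3 were near the width limit, at 20961 to 24005 bp.

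**Figure D2:**
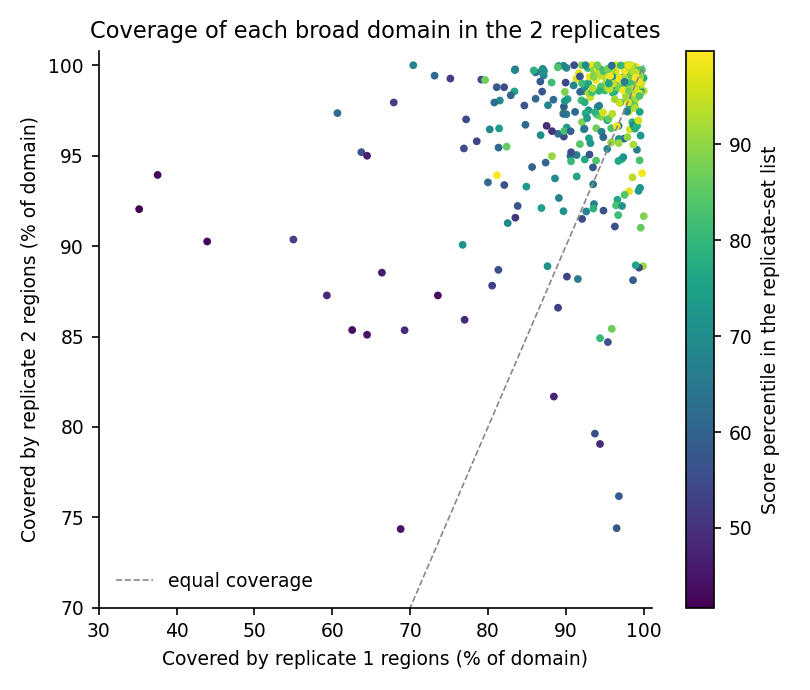
Share of each of the 334 broad domains covered by regions of replicate 1 (x axis, %) and of replicate 2 (y axis, %, from 70), coloured by the domain's score percentile in the replicate-set list. Most points crowd near 100% on both axes, and the 3 points farthest to the left, at 35.2% to 43.9% in replicate 1, lie at 90.3% to 93.9% in replicate 2.

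The next comparison asked whether a broad domain was a single broad region in each replicate or a chain of shorter ones. Chains were common. A single region made up the domain in 113 cases (33.8%) in replicate 1 and in 181 cases (54.2%) in replicate 2. It did so in both for 85 domains (25.4%), against 44.7% of all 2933 regions, and for 1225 of the 1681 narrower regions found in each replicate (72.9%). A further 28 domains were single in replicate 1 only, 96 in replicate 2 only and 125 in neither. At least 2 regions lay in 221 domains in replicate 1 and in 153 in replicate 2, where the background over all regions was 19.4% and 14.6%. A wider stretch has more room for breaks, and the part of width in these counts was not tested. Replicate 1 put 844 regions into the domains (2.53 per domain, at most 13) and replicate 2 put in 579 (1.73 per domain, at most 9). Replicate 1 had more regions than replicate 2 in 158 domains, fewer in 42 and equally many in 134.

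**Figure D3:**
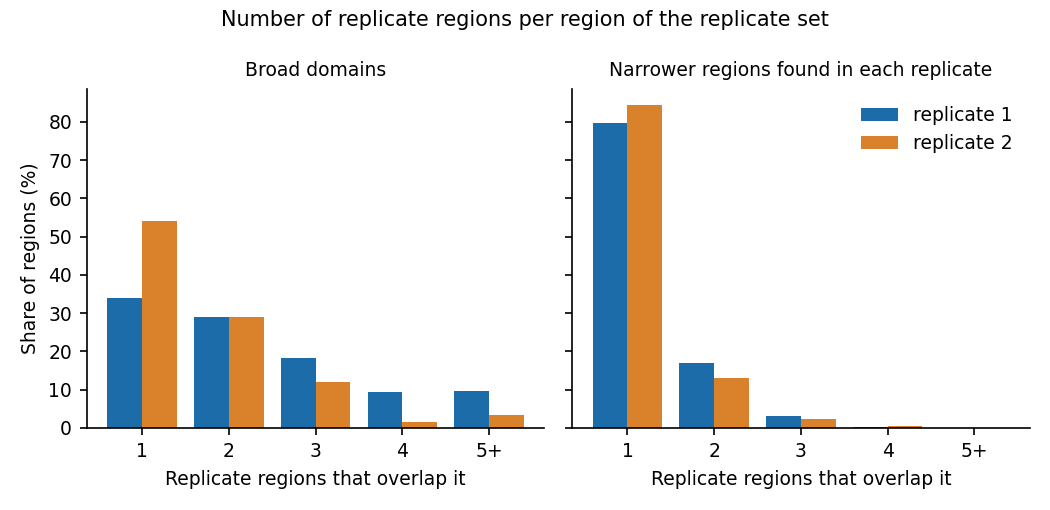
Share (%) of the 334 broad domains (left) and of the 1681 narrower regions found in each replicate (right) that overlapped 1, 2, 3, 4, or 5 and more regions of replicate 1 (blue) and of replicate 2 (orange). A single region is the most frequent case in all 4 sets of bars, with 33.8% and 54.2% for broad domains against 79.7% and 84.4% for narrower regions.

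In most domains 1 replicate region held the larger part. The largest replicate region covered a median of 77.7% of the domain in replicate 1 and 95.2% in replicate 2. It covered at least 50% of the domain in 265 of the 334 domains in replicate 1 and in 307 in replicate 2. For narrower regions found in each replicate the medians were 89.1% in replicate 1 and 93.0% in replicate 2. At least 50% was reached in 1454 and 1546 of these 1681 regions. By the medians, the largest region thus held a smaller part of broad domains than of narrower regions in replicate 1. In replicate 2 it held a slightly larger part. A region that was itself at least 20 kb wide lay in the domain in each replicate in 183 cases, in replicate 1 only in 20, in replicate 2 only in 70 and in neither in 61. Over all 2933 regions such a region was present in each replicate for 6.24%, and these were the same 183, since no narrower region had one in each replicate. The 61 domains with no such region in either replicate passed the width limit only in the replicate-set list. Conversely, all 214 regions of at least 20 kb in replicate 1 and 262 of the 264 in replicate 2 overlapped a broad domain.

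The breaks inside domains were short and mostly belonged to 1 replicate. Replicate 1 left 510 gaps between its regions in 221 domains, with a median of 412 bp (middle range 190.5 to 1148.75 bp) and 433 kb in all. Replicate 2 left 244 gaps in 152 domains, with a median of 302.5 bp (middle range 121.75 to 693.75 bp) and 129 kb in all. Of the gaps in replicate 1, 408 of 510 were wholly covered by regions of replicate 2, and 91 of 510 (17.8%) overlapped a gap there. Of the gaps in replicate 2, 136 (55.7%) were wholly covered in replicate 1 and 91 (37.3%) overlapped a gap. Gaps over 1000 bp numbered 144 in replicate 1 and 39 in replicate 2. Stretches free of regions in both replicates that did not touch an edge, though some came close to it, were found 120 times in 90 domains. They had a median of 174.5 bp and 13 of them exceeded 1000 bp. The widest ran on 3L from 19050401 to 19052380, 1980 bp inside a domain of 40.3 kb (19038450 to 19078724).

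The widest domains showed both forms. On 3R the domain from 5708150 to 5816848 (109 kb) was 1 region in each replicate, covering 98.0% in replicate 1 and 98.6% in replicate 2. The domain on 3R from 4895724 to 5024732 (129 kb) was 4 regions in replicate 1, the largest covering 51.4%, and 1 region in replicate 2 covering 99.5%. Its gaps in replicate 1 added up to only 1242 bp. The domain on 3R from 17962948 to 18066310 (103 kb) was 2 regions in replicate 1, with a gap of 618 bp, and 1 in replicate 2. These 3 domains of 3R were thus all but continuous.

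On 3L the widest domains were more broken in replicate 1. The domain from 2754762 to 2871220 (116 kb) held 9 regions of replicate 1, the largest covering 26.8%, and 1 region of replicate 2 covering 98.8%. The domain from 22276824 to 22387588 (111 kb) held 4 and 2 regions, and the outermost replicate 1 region ended 5539 bp short of the right edge. The domain from 22131806 to 22236218 (104 kb) held 10 and 3, with a widest gap of 4189 bp in replicate 1 and of 595 bp in replicate 2. In each of these 3 domains of 3L, replicate 2 had fewer regions and covered more than replicate 1.

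On 2L the domain from 12454806 to 12545568 (90.8 kb) held 3 regions of replicate 1 and 1 of replicate 2. The domain from 13564274 to 13637718 (73.4 kb) was a single region over 99.7% of its width in replicate 1 and 2 regions with 37 bp between them in replicate 2. The domain from 19887560 to 19958688 (71.1 kb) held 8 regions of replicate 1, with 6751 bp of gaps, and 3 of replicate 2, with 49 bp of gaps. On 2L the split was therefore uneven from domain to domain, and in the 73.4-kb domain it was replicate 2 that broke.

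The domains with the most replicate regions were all wider than the 75th percentile of width, 40591 bp. A wide domain has more room for breaks. The domain on 3R from 15326352 to 15389908 (63.6 kb) held 11 regions of replicate 1 and 9 of replicate 2. The domain on 3L from 11359458 to 11427082 (67.6 kb) held 11 and 8, and that on 3R from 13632568 to 13693702 (61.1 kb) held 13 and 5. Their score percentiles were 50.6, 55.5 and 53.6. Replicate 1 covered 83.5%, 90.7% and 78.6% of them, and replicate 2 covered 91.6%, 95.2% and 95.8%. The domain on 3R from 15617582 to 15659642 (42.1 kb, percentile 44.7) tied with the last of these, with 12 and 6 regions. It was covered to 68.8% in replicate 1 and to 74.4% in replicate 2, the lowest replicate 2 coverage of the 334 domains.

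Each region carries a score, the authors' own value on a scale the file headers do not name, which was used only as a rank within a list. Broad domains ranked high on average but spread widely. Their median percentile was 79.2, with a middle range of 65.9 to 90.7 and a lowest value of 41.7. The narrower regions found in each replicate had a median of 61.4 (44.4 to 79.5). Of the domains, 196 (58.7%) ranked above the 75th percentile, where 24.6% of all 2933 regions ranked. Only 15 (4.49%) ranked in the lower 50% of the list, where 50.9% of all 2933 regions ranked. By the highest-scoring overlapping region in each replicate list, the domains had a median percentile of 77.5 in replicate 1 and 80.7 in replicate 2. For narrower regions found in each replicate it was 58.7 and 56.0. A highest value tends to rise with the number of overlapping regions, which was larger for broad domains, so these 2 sets are not compared further. Score and width come from the same call, so the ranks were not tested.

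Within the domains, the score went with how unbroken a domain was and hardly with its width. Across the 334 domains, the Spearman rho between score and width was 0.101. Across the 1681 narrower regions found in each replicate it was 0.568. The rule cut the range of widths, so the low value within the domains does not hold for the list. Within the 334 domains, rho between score and coverage was 0.600 for replicate 1 and 0.458 for replicate 2. Between score and number of replicate regions it was -0.553 and -0.448. For the 1681 narrower regions, rho between score and coverage was 0.625 and 0.588, so that link was not particular to broad domains. With number of replicate regions it was -0.103 and -0.121 there, where most had a single region. These are descriptions across regions that share libraries and caller. The 112 highest-scoring domains (percentile 86.9 to 99.8) were covered to medians of 97.7% in replicate 1 and 99.1% in replicate 2, and held 1.64 and 1.27 regions each. The 111 in the middle (70.6 to 86.7) were covered to 95.9% and 98.1% and held 2.05 and 1.64 regions. The 111 lowest (41.7 to 70.2) were covered to 88.6% and 96.1% and held 3.89 and 2.30. Coverage of at least 90% in each replicate was reached by 106, 93 and 37 domains of these groups, and 47, 32 and 6 were a single region in each replicate. Median widths were 30944, 27053 and 27447 bp.

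The extremes of the ranking did not all follow this. The highest-scoring domain, 40.3 kb of 3R between 27243060 and 27283312, was 1 region in each replicate. The next, 47.97 kb of 2L between 2886344 and 2934312, was 2 regions in replicate 1 and 1 in replicate 2. The domain ranked after it, 30.4 kb of 3R between 16974942 and 17005308, was covered to only 81.2% in replicate 1, whose outermost region began 5106 bp inside the left edge, against 93.9% in replicate 2. The lowest-scoring domains were those on 2L from 17717452 to 17741456 and on 3L from 6320850 to 6341810, described above, and that on 3R from 11470446 to 11490856 (20.4 kb). The 20.4-kb domain held 5 regions in each replicate, which covered 62.6% in replicate 1 and 85.4% in replicate 2.

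Wider domains held more regions of replicate 1, and their median coverage was no lower than that of the narrowest class in either replicate. For the 118 domains of 20 to 25 kb, median coverage was 93.9% in replicate 1 and 97.7% in replicate 2, and for the 11 of 80 kb or more it was 97.5% and 98.6%. Replicate 1 placed 2.12 regions in a domain of 20 to 25 kb, 3.08 in one of 40 to 60 kb, 4.76 in one of 60 to 80 kb and 4.64 in one of 80 kb or more. Replicate 2 placed 1.66, 1.79, 3.12 and 1.55, so its highest value was in the class of 60 to 80 kb, which held 17 domains. Counted per 10 kb, replicate 1 had 0.955 regions in the narrowest class and 0.461 in the widest, and replicate 2 had 0.749 and 0.154. By the rule each domain overlaps at least 1 region of each replicate. A value per 10 kb therefore tends to fall with width, and nothing is read from this fall. Across the 334 domains the rho between width and number of regions was 0.231 in replicate 1 and 0.0665 in replicate 2.

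The edges of the domains were close to the outermost edges of the replicate regions. The median distance was 229 bp for replicate 1, against 116 bp for replicate 2, a mean of 172.5 bp ± 79.9 (SD, n = 2). For narrower regions it was 162 and 127.5 bp. Of the 668 domain edges, 460 (68.9%) in replicate 1 and 523 (78.3%) in replicate 2 were matched within 500 bp, and 67 and 30 were off by more than 2000 bp. The replicate edge lay inside the domain at 596 edges (89.2%) in replicate 1 and at 520 (77.8%) in replicate 2, so the replicate-set list usually reached slightly farther out than either. The replicates' own outer edges differed from each other by a median of 273 bp. Replicate 2 reached farther out at 412 edges and replicate 1 at 256.

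Seen from the edge, replicate coverage dropped towards the edge and was partly regained farther out. In the last 500 bp inside the edge, 49.5% of bases were covered in replicate 1 and 63.9% in replicate 2, against 91.1% and 97.5% at 2 to 5 kb inside. Narrower regions found in each replicate were covered to 57.0% and 64.4% in their last 500 bp. At 1 to 2 kb inside, broad domains were covered to 84.8% and 92.7%, and narrower regions to 90.1% and 94.5%. At 2 to 5 kb inside, narrower regions were covered to 92.6% and 96.7%. The narrower regions had a median width of 6455 bp, and short ones have no bases that far inside. The value there thus rests on the wider of them, and the 2 sets are not like for like. In replicate 1, the bases of broad domains were covered less than those of narrower regions that reached these 3 distances. In replicate 2 the values were close in the last 500 bp, and broad domains were covered more at 2 to 5 kb. These differences were not tested. In the first 500 bp outside broad domains, coverage was 7.87% and 10.9%. A dip there follows from the calling, since a region ends where the list breaks. At 5 to 10 kb outside it was 46.8% in replicate 1 and 49.6% in replicate 2, and at 20 to 50 kb it was 41.7% and 43.97%. Around narrower regions found in each replicate it was 41.5% and 44.4% at 5 to 10 kb, and 37.5% and 39.6% at 20 to 50 kb. The arms as a whole under the limits were covered to 32.3% and 34.1%. From 2 to 50 kb outside, the flanks of broad domains thus held more enriched sequence than the arms as a whole in each replicate. So did those of narrower regions. Within 2 kb of the edge the flanks of both held less than the arms as a whole. At 1 to 2 kb outside, coverage was 26.3% and 30.7% for broad domains and 26.9% and 28.8% for narrower regions.

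**Figure D4:**
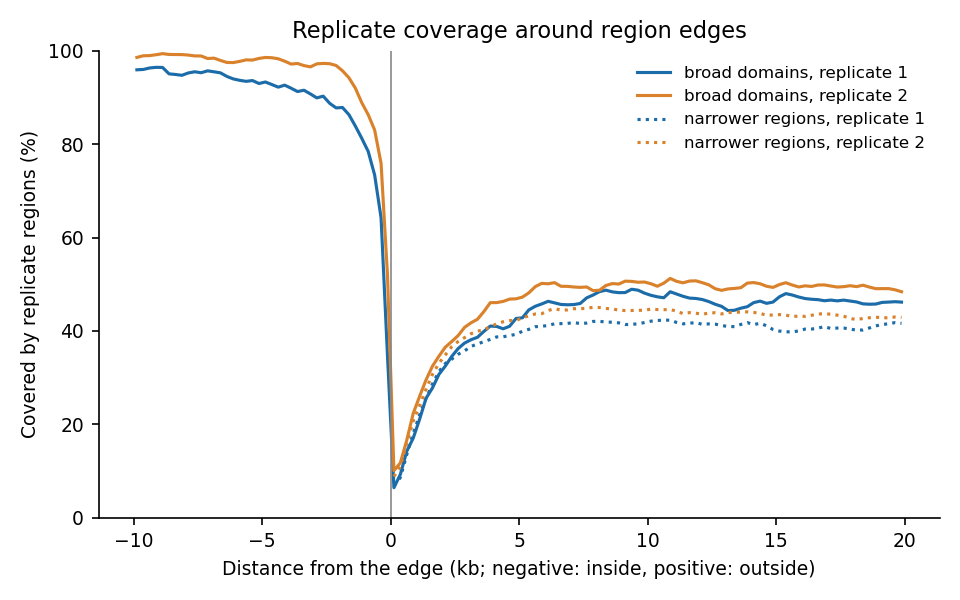
Share of bases (%) covered by regions of replicate 1 (blue) and of replicate 2 (orange) by distance in kb from the edges of the 334 broad domains (solid lines; negative inside, positive outside), in steps of 250 bp with both edges pooled. Dotted lines give the outside of the 1681 narrower regions; at 5 to 10 kb outside, broad domains have 46.8% and 49.6% and narrower regions 41.5% and 44.4%.

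Most domains had another enriched region close by. The nearest region of the replicate-set list lay a median of 766 bp away (middle range 200.0 to 2483.5 bp), against 847 bp (245 to 2689 bp) for narrower regions found in each replicate. It lay less than 1000 bp away for 186 domains (55.7%), close to the 54.4% of all 2933 regions. A region lay that close on both sides for 43 domains (12.9%), against 11.6% of narrower regions found in each replicate. Only 17 domains (5.09%) were more than 10 kb from a neighbour on both sides, against 8.29% of all 2933 regions. In closeness to a neighbour the broad domains were thus near the background.

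The most isolated domain lay on 2L from 20058004 to 20097690 (39.7 kb), with no other region for 55.3 kb to its left and 201 kb to its right. Replicate 1 covered 99.99% of it and replicate 2 99.3%. The domain on 3L from 1940290 to 1970212 (29.9 kb) stood 54.8 and 170 kb from its neighbours, and was covered to 98.7% and 96.7%. The domain on 3R from 16774646 to 16801090 (26.4 kb) stood 95.2 and 41.7 kb away, and was 1 region in each replicate. These isolated domains were well covered in both replicates.

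Some domains were separated by very little. Of the 331 pairs of consecutive domains on an arm, 19 lay less than 1000 bp apart and 63 less than 10 kb. The closest pair, on 3L, was 46.1 kb between 441896 and 487980 and 55.3 kb between 488004 and 543290, with 23 bp between them that neither replicate covered. The next closest lay on 2L, from 13166528 to 13191782 and from 13191846 to 13212092, 63 bp apart, of which replicate 1 covered 0% and replicate 2 44.4%. The third lay on 2L, from 19577080 to 19619454 and from 19619576 to 19651240, 121 bp apart, of which replicate 1 covered 62.8% and replicate 2 58.7%. For these 3 pairs the number of domains depends on a break of 23 to 121 bp.

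Along the arms, domains were spread widely but unevenly. Consecutive domains lay a median of 89.5 kb apart, 70.5 kb on 2L, 89.9 kb on 3L and 108 kb on 3R. In 68 windows of 1 Mb the number of domains had a median of 5 and ran from 0 to 10. The window with 10 was the distal end of 3L, from 1 to 1000000, where domains filled 38.3% of the sequence. Replicate 1 covered 55.9% of that window and replicate 2 58.8%. There were 4 windows with 0 domains: 2L from 15000001 to 16000000, 3L from 5000001 to 6000000, and 3R from 8000001 to 9000000 and from 26000001 to 27000000. They were not free of the mark, since replicate 1 covered 9.47% to 17.4% of them and replicate 2 9.47% to 18.6%. The longest stretch between consecutive domains was 1931 kb on 2L, from the end of a domain at 14673470 to the start of the next at 16604558. It held 49 narrower regions of the replicate-set list, and replicate 1 covered 11.3% of it and replicate 2 12.2%.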

How the data were processed

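The data were 3 lists of regions of significant enrichment on FlyBase release 5, per the file headers, from 2 ChIP replicates and their replicate set. The submitters' processing notes name Bowtie 0.12.7. The region caller, its settings, the pooling of replicates and the depth were not given in the sources used here. A score per region was deposited by the authors on an unnamed scale and was used as a rank within a list. An end in scientific notation was read as a whole number.

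The position limits were an end of at most 21011544 on 2L and 22543557 on 3L and a start above 2000000 on 3R. Coverage is the share of a region's bases inside replicate regions. A gap is a stretch between replicate regions inside a domain. Interval functions (Python 3.11.15, numpy 2.4.6, pandas 2.3.3) were tested on simulated regions. Correlations are Spearman's rho (scipy 1.17.1). No p-value was computed, because width and overlap chose the domains from the same libraries. The members, measures and alternatives were chosen with earlier results of these data known. Domains were named by rule: the 3 widest per arm, and the 3 with the highest and lowest score, the lowest coverage, the most replicate regions, the farthest neighbours, the closest pairs and the widths nearest the limit, and the widest gap in both replicates. Windows and stretches without domains were chosen after their values were seen. The inputs served only in the authors' calling.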

Additional observations from a re-analysis of the deposited data

How the results depend on the processing

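No paired analysis was possible because the inputs have no list of regions here and no test was made. Of 8 summary values recomputed under the alternatives other than leaving out a replicate, 37 of 56 recomputed values stayed close to the reported one (counts within 1.5 times, other values within 1 SD between replicates). Coverage and edge distance stayed so under each alternative run. At 30 kb there were 147 domains on 10.3% of the arms, 108 covered to 90% in each replicate, 26 single in each, with a median score percentile of 81.1. At 15 kb, 492 domains took up 20.7% and 154 of the 492 were single in each. Restricted to the highest-scoring 50% of each list there were 288 domains, of which 150 were covered to 90% and 158 were single in each. Their nearest neighbour was 2663 bp away and the percentile was 82.4. With regions less than 1000 bp apart joined, 417 domains took up 23.3% and 174 of the 417 were single in each. Their neighbour was 2517 bp away and the percentile was 77.1. By the list of replicate 1 there were 214 domains on 9.77% of the arms. By that of replicate 2 they took up 12.8%, with a percentile of 81.2. Taking each replicate alone, 113 to 181 domains were single and 249 to 308 were covered to 90%. The width limit and the joining change the count by construction, and joining also leaves no neighbour closer than 1000 bp. Keeping the highest-scoring 50% removes low-scoring domains, neighbours and replicate regions. The percentile, the neighbour distance and the counts covered or single are thus also affected by construction. The causes of the other shifts were not tested. Depth is unknown, so how far it limits the width and breaks of a domain cannot be given.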

Other observations

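The only regions of at least 20 kb in a replicate list that overlapped no broad domain were 2 regions of replicate 2, on 2L from 3405211 to 3426128 (20918 bp) and on 3R from 16644276 to 16665875 (21600 bp). Their scores ranked at the 49.3rd and 60.8th percentile of the list of replicate 2. Both overlapped narrower regions of the replicate-set list.

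Only 1 region of at least 20 kb in a replicate list reached over 2 broad domains. It belonged to replicate 1. The gap of 243 bp between the domains on 3R from 16974942 to 17005308 and from 17005552 to 17039616 was covered to 100% in replicate 1 and to 0% in replicate 2.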
